A study of Mus musculus with 9 samples.

Results

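In mouse liver, 8 genes that admit glucose and fructose to glycolysis or regulate it were compared between a group labelled control and a group fed a high-fat diet (HFD): Slc2a2, Gckr, Khk, Pfkl, Pfkfb1, Pfkfb3, Pklr and Mlxipl. Members were the probe sets, the groups of short oligonucleotides that read 1 transcript on the array, that the platform annotation pairs with exactly 1 of these symbols. This gave 12 of the 41782 probe sets, and they covered 7 of the 8 genes. The expression of Pfkfb1 was not analysed here.

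Total liver RNA of c57Bl/6 mice was biotin-labelled and hybridised to Affymetrix GeneChip arrays, 4 labelled control and 5 labelled HFD. All mice ate chow until the study, and the HFD held 21% fat, which supplied 42% of its calories. The labels give no composition of the control diet, no sex, age or time on the diet. Nor do they state whether every array came from its own mouse, so the p-values reflect the variation among these 9 arrays, part of which may be technical. The authors name the median of all samples as the baseline of each probe set, and values were read as log2. Differences between arrays can thus be read but levels cannot, and 2 probe sets cannot be ranked by level. In most probe sets the baseline does not appear to be the median of these 9 arrays, which would be the value of an array. Instead, 2 arrays lay equally far on either side of it in 92.82% of probe sets. In Gckr these were control replicate 1 (-0.088) and HFD replicate 5 (0.088). Which samples the baseline covered was not established here. In whole liver, fewer cells of a type and less RNA per cell cannot be told apart.

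Glucose enters hepatocytes through the transporter encoded by Slc2a2 and is then phosphorylated, a step that the product of Gckr restrains. Fructose is phosphorylated by ketohexokinase, the product of Khk, and joins glycolysis below the step of phosphofructokinase (Pfkl in liver), which Pfkfb enzymes tune by making and removing an activating sugar bisphosphate. Pklr encodes the pyruvate kinase of liver, the last step. Mlxipl encodes ChREBP, a transcription factor that responds to sugar and acts through carbohydrate response elements, of which that in the Pklr promoter is the classic example.

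The promoter sequences of Khk and Pklr are shown, the members with the largest differences. Whether the motifs in them had a part in these differences was not tested. The sequences come from RefSeq (GRCm38.p6) and run 5′ to 3′ over the 250 bases before the start site, with motif matches in capitals. For Pklr the downstream of 2 start sites is shown, the one that serves the liver form (plus strand, chr3:89136373-89136622), and for Khk the only one in the table (plus strand, chr5:30921309-30921558).
Pklr: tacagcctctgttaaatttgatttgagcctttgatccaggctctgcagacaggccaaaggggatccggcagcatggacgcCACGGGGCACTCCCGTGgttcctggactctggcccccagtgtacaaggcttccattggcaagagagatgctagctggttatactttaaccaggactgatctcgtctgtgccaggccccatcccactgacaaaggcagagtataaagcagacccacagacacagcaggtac
Khk: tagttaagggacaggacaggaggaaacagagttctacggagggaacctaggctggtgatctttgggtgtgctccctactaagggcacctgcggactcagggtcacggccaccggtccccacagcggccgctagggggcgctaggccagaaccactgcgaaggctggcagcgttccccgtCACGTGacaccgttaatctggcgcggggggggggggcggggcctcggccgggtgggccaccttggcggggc

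The capitals in Pklr match CACGNG and CNCGTG spaced 5 bases apart, a form of the carbohydrate response element, and begin 170 bases before the start site (chr3:89136453-89136469). This motif was found in 15 of 32851 promoter windows of 300 bases, or 0.0457%, each reaching 50 bases past its start site, with both strands searched. The narrower form, CACGGG and CCCGTG at that spacing, was found in 1 window, that of Pklr (0.00304%). Its letters are those of Pklr itself outside the 5 bases between, so this match and its rarity are no independent evidence. The wider CANGNG and CNCNTG was found in 0.557%, and among members in the same bases of Pklr. In Khk the capitals are an E-box, CACGTG, 71 bases before the start site (chr5:30921488-30921493). E-boxes were in 7.15% of all windows, and among members also in 1 window each of Mlxipl (98 bases before the start) and Pfkfb3 (53 bases before). An E-box can form part of the longer element. None of the 10 windows of the 7 measured members matched any of 8 further motifs. For HNF1 these were GTTAAT and ATTAAC 1 base apart (0.00913% of all windows) and GTTAAT and ATTANC at that spacing (0.0335%). For nuclear receptors they were AGGTCA repeated 1 base apart, the base being A (0.0152%), and TGACCTTTG (0.478%). For HNF4A they were CAAAGTCCA (0.475%) and CAAAGTTCA (0.39%). For SREBP they were ATCAC directly followed by CCCAC (0.0913%) and TCAC and ACCC 3 bases apart (1.36%). The windows of Gckr, Slc2a2 and Pfkl held none of the 12 motifs, which were chosen in part after member sequences had been seen. The promoter of Pfkfb1, whose expression was not analysed here, held TGACCTTTG in 1 window, 100 bases before the start site (chrX:150589816-150589824). A match or its absence describes letters and says nothing of binding.

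HFD replicates 3 and 5 stood apart from the other arrays in the array's own control probe sets. The 3′ minus 5′ signal, averaged over the control probe sets for actin, Gapdh and pyruvate carboxylase, was 0.65 in HFD replicate 3 and 1.02 in HFD replicate 5, against -0.62 to -0.03 in the other 7 arrays. A higher value means relatively more signal from the 3′ end of the transcript, a usual measure of RNA quality. The 24 probe sets for polyadenylated spike-in RNA averaged 0.90 and 1.06 in these arrays, and -1.02 (control replicate 1) to 0.32 in the others. Where each member's probe set lies on its transcript was not analysed here. A fit with this measure as a covariate is given below, but whether it caused any of the differences was not tested. The called members are therefore given with and without these arrays. Kupffer cell markers were lower in HFD, 11 of 15 genes, with array means of 0.18 to 1.31 in control and -1.24 to 0.13 in HFD. Of their 20 probe sets 13 were lower at an adjusted p under 0.05 in limma, against 1.23% of all probe sets. The part of these markers in the results was not tested either. Without HFD replicates 3 and 5, 3 of these genes passed (Csf1r, Folr2 and Vsig4). Of 12 sinusoidal endothelial marker genes 2 were lower (array means 0.10 to 0.51 in control and -0.90 to 0.18 in HFD). Among 10 stellate genes 1 was higher (Lrat), but the list had no common direction. Its median difference was -0.02 over 22 probe sets, from -0.64 in Colec11 to 0.71 in Lrat (array means -0.15 to 0.09 in control and -0.27 to 0.22 in HFD). Of 8 neutrophil genes 1 was lower (S100a9). None of these 4 genes passed without HFD replicates 3 and 5 (adjusted p = 0.0674 to 0.134 for 3 Fcgr2b probe sets, 0.149 for Stab1, 0.160 for Lrat and 0.0775 for S100a9), nor without any 1 control array. None of 5 biliary, 8 lymphocyte, 5 adipocyte, 7 pancreas, 6 skeletal muscle or 2 erythroid marker genes passed in limma, with 0, 1, 1, 1, 0 and 1 probe sets at an unadjusted p under 0.05. None of 9 hepatocyte marker genes was past the threshold in limma, with 7 of 17 probe sets at an unadjusted p under 0.05 (array means 0.00 to 0.21 in control and -0.19 to 0.04 in HFD). These 7 went in both directions. Those of Apoc3 (0.21) and Hpd (0.26) were higher, and those of Cps1 (-0.26), Fgb (-0.37), Tat (-0.79) and Tdo2 (-0.42 and -0.48) were lower.

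Of the 12 probe sets, 4 were higher in HFD and none was lower at an adjusted p under 0.05 in limma, against 2.04% higher and 1.23% lower among all 41782 probe sets (3.26% in either direction). The 4 probe sets, 1 each for Slc2a2, Gckr, Khk and Pklr, were also the only members whose groups did not overlap, against 4.5% of all probe sets in that direction, 3.5% in the opposite one and 8% in either. The median difference of the 12 was 0.31 on the log2 scale, beside -0.01 for all probe sets. Counts over genes chosen with earlier results known describe these members and are no independent evidence. Pfkl, Pfkfb3 and Mlxipl had no probe set past the threshold. With HFD replicates 3 and 5 left out 4 probe sets were again past it, when 2.22% of all probe sets were called in either direction.

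**Figure D1:**
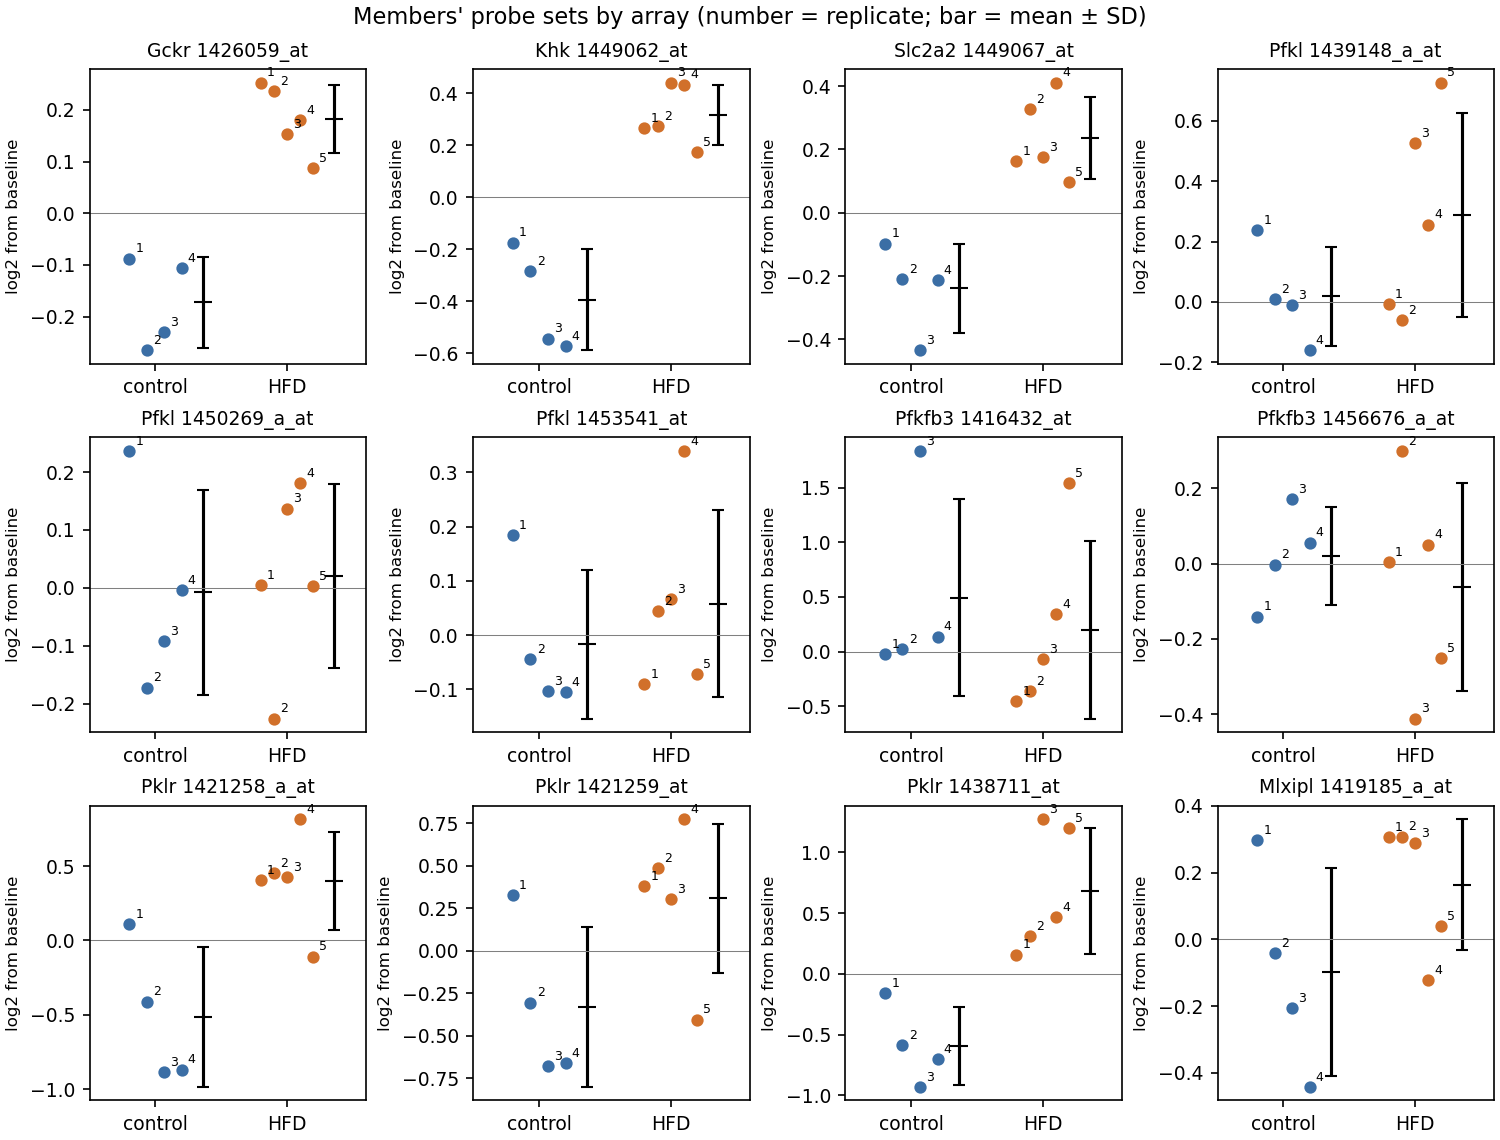
Value of each of the 12 member probe sets on each array (log2 difference from the probe set's baseline), with points numbered by replicate and bars giving the mean ± SD of 4 control and 5 HFD arrays. Control and HFD points are fully separated for Gckr, Khk, Slc2a2 and Pklr 1438711_at, and overlap in the other 8 panels.

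Slc2a2 (chromosome 3, 28697903 to 28728361), the glucose transporter of hepatocytes that also carries fructose, was read by 1 probe set (1449067_at). Its values were -0.10, -0.21, -0.44 and -0.21 in control replicates 1 to 4, and 0.16, 0.33, 0.18, 0.41 and 0.10 in HFD replicates 1 to 5. All HFD arrays lay above all control arrays, with HFD replicate 4 highest and control replicate 3 lowest. The difference was 0.47 ± 0.09 (SE; 1.39-fold, adjusted p = 0.0234). It was 0.54 ± 0.10 without HFD replicates 3 and 5 (adjusted p = 0.0342), while the call ended without control replicate 2, 3 or 4 or HFD replicate 2 (highest adjusted p = 0.0723).

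Gckr (chromosome 5, 31297266 to 31327302), a regulatory protein of glucose phosphorylation, showed the smallest of the 4 rises. Control replicates 1 to 4 read -0.09, -0.27, -0.23 and -0.11, and HFD replicates 1 to 5 read 0.25, 0.24, 0.15, 0.18 and 0.09. The groups did not overlap, although HFD replicate 5 and control replicate 1 were only 0.09 from the baseline on either side. HFD exceeded control by 0.35 ± 0.07 (1.28-fold, adjusted p = 0.0263), and by 0.40 ± 0.08 without HFD replicates 3 and 5 (adjusted p = 0.0423). The call ended when any of HFD replicates 1, 2 or 3 or of control replicates 2 or 3 was omitted (highest adjusted p = 0.0947), and with the 25% of probe sets with the smallest SD left out (adjusted p = 0.0510).

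Khk (chromosome 5, 30921436 to 30931248), which commits fructose to breakdown in the liver, was the member with the lowest p. In control it read -0.17, -0.28, -0.54 and -0.57, and in HFD 0.27, 0.27, 0.44, 0.43 and 0.17. The lowest HFD array (replicate 5) was above the highest control array (replicate 1) by more than the SD of the control group (0.20, n = 4) or of the HFD group (0.12, n = 5). Expression was higher in HFD by 0.71 ± 0.10 (1.64-fold, adjusted p = 0.00547). No single omitted array ended this call (highest adjusted p = 0.0233), and without HFD replicates 3 and 5 the difference was 0.72 ± 0.12 (adjusted p = 0.0183).

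Pklr (chromosome 3, 89136122 to 89146815) was read by 3 probe sets that differed in size and in which HFD arrays were high. Probe set 1438711_at read -0.16, -0.59, -0.93 and -0.70 in control, and 0.16, 0.31, 1.28, 0.47 and 1.20 in HFD. HFD replicates 3 and 5 were the highest, and the groups did not overlap. Its difference was 1.28 ± 0.25 (2.42-fold, adjusted p = 0.0210), the largest of any member, and the call ended without control replicate 2, 3 or 4 (highest adjusted p = 0.0731).

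Probe set 1421258_a_at of Pklr read 0.11, -0.41, -0.88 and -0.87 in control, and 0.40, 0.45, 0.42, 0.82 and -0.11 in HFD. Probe set 1421259_at read 0.33, -0.31, -0.68 and -0.66 in control, and 0.38, 0.49, 0.31, 0.78 and -0.41 in HFD. In both, HFD replicate 5 fell among the controls and control replicate 1 among the HFD arrays. Their differences of 0.91 ± 0.22 (adjusted p = 0.0533) and 0.64 ± 0.25 (adjusted p = 0.230) did not pass over all probe sets.

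HFD replicate 5 was thus 1.31 and 1.61 lower in these probe sets than in 1438711_at, and HFD replicate 3 was 0.85 and 0.97 lower, while the remaining 7 arrays differed by -0.17 to 0.49. Without HFD replicates 3 and 5 the 3 probe sets gave 0.91 ± 0.17 for 1438711_at (adjusted p = 0.0301), 1.07 ± 0.23 for 1421258_a_at (adjusted p = 0.0530) and 0.88 ± 0.23 for 1421259_at (adjusted p = 0.0988). With the 3′ minus 5′ signal as a covariate they were 1.13 ± 0.19, 1.02 ± 0.19 and 0.79 ± 0.18, and all 3 passed (adjusted p = 0.00849, 0.0126 and 0.0361). That covariate was chosen after seeing the data and was above 0 only on HFD replicates 3 and 5. With it 4.76% of all probe sets passed, against 3.26% without it. Khk, Slc2a2 and Gckr also passed with it (0.73 ± 0.10, 0.51 ± 0.09 and 0.37 ± 0.07, adjusted p = 0.00444, 0.00875 and 0.0150). No probe set of Pfkl, Pfkfb3 or Mlxipl did. Leaving out control replicate 1 together with HFD replicate 5 gave 1.25 for 1421258_a_at and 1.04 for 1421259_at, both past the threshold (adjusted p = 0.00583 and 0.00833). In both probe sets these were the highest control array and the lowest HFD array. Their omission was therefore bound to widen the differences and is no independent evidence.

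**Figure D2:**
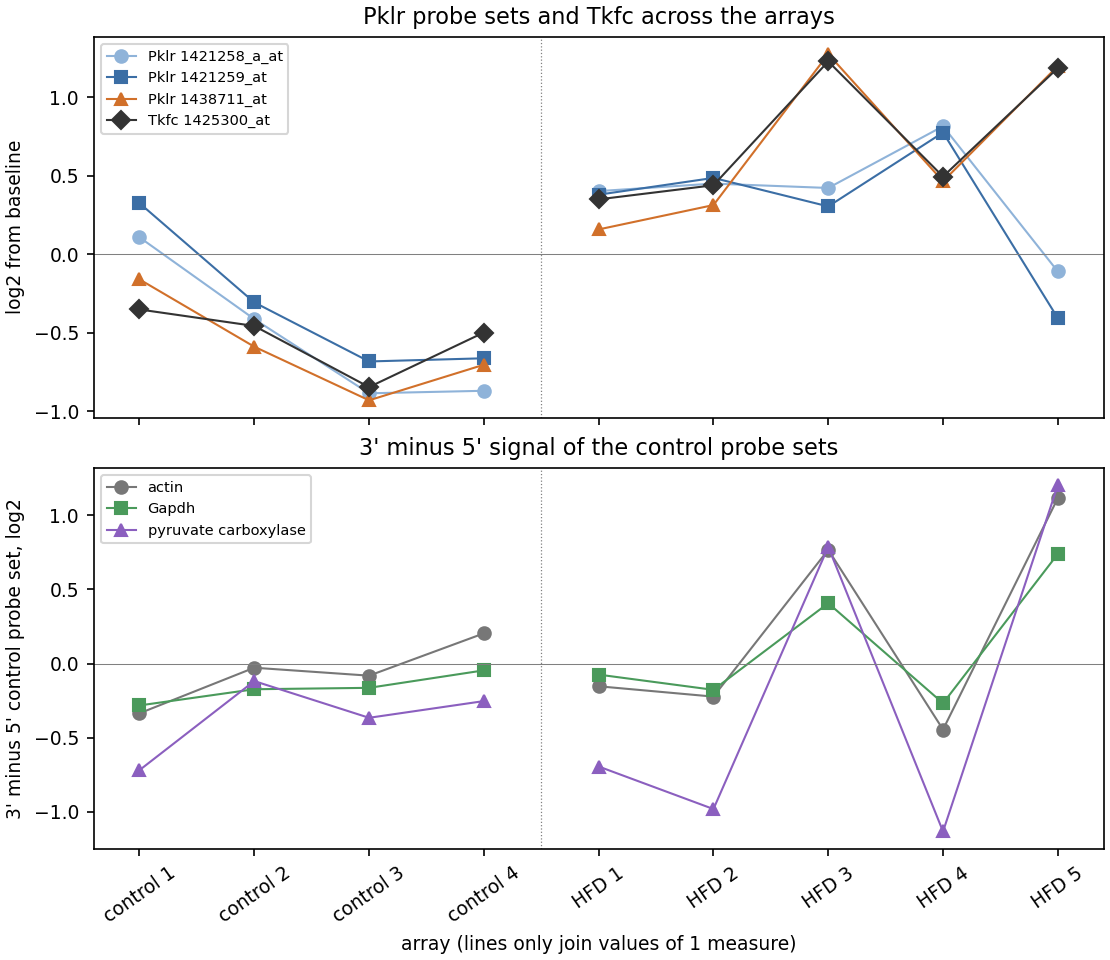
Upper panel, log2 difference from baseline of the 3 Pklr probe sets and of Tkfc on each array. Lower panel, 3′ minus 5′ signal (log2) of the control probe sets for actin, Gapdh and pyruvate carboxylase on the same arrays. On HFD replicates 3 and 5, where all 3 measures of the lower panel are above 0.4, Pklr 1438711_at and Tkfc are at 1.19 to 1.28 and the other Pklr probe sets at -0.41 to 0.42.

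Whether probe sets of 1 gene responded unequally was asked of all 7 pairs within Pfkl, Pfkfb3 and Pklr, by an exact permutation test over the 126 splits of the arrays, two-sided. Pklr 1421258_a_at exceeded 1421259_at by 0.27 more in HFD than in control (0.09 ± 0.13, SD, n = 5, against -0.18 ± 0.05, SD, n = 4; exact p = 0.0159, adjusted p = 0.111). The other pairs had exact permutation p-values from 0.214 to 0.675. The smallest p the test allows, 0.00794, would not pass for 1 pair alone after adjustment over 7, so no pair could be called without others.

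Pfkl (chromosome 10, 77986947 to 78009807), the liver subunit of phosphofructokinase, was not past the threshold in any of its 3 probe sets. In 1439148_a_at control arrays read 0.24, 0.01, -0.01 and -0.16 and HFD arrays -0.01, -0.06, 0.53, 0.26 and 0.73, so that HFD replicates 3 and 5 were the highest and the other HFD arrays lay within or just above the controls. The difference was 0.27 ± 0.16 (95% confidence interval -0.09 to 0.63, adjusted p = 0.458), and 0.04 ± 0.12 without HFD replicates 3 and 5. Probe sets 1450269_a_at and 1453541_at gave 0.03 (interval -0.21 to 0.27) and 0.07 (interval -0.16 to 0.30). Differences within these intervals were not excluded with 9 arrays.

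Pfkfb3 (chromosome 2, 11471430 to 11554071), a bifunctional enzyme that mainly makes the activator of phosphofructokinase, varied among arrays more than between groups. Probe set 1416432_at read -0.02, 0.02, 1.84 and 0.14 in control and -0.45, -0.36, -0.07, 0.34 and 1.55 in HFD, with 1 high array in each group, control replicate 3 and HFD replicate 5. Its difference was -0.29 ± 0.46 (interval -1.32 to 0.73, adjusted p = 0.817), turned to 0.15 without control replicate 3 and was -0.63 without HFD replicate 5. The other probe set, 1456676_a_at, ranged from -0.14 to 0.17 in control and from -0.41 to 0.30 in HFD and was not high on HFD replicate 5 (-0.25), while control replicate 3 was again the highest control array (-0.08 ± 0.14, adjusted p = 0.825).

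Mlxipl (chromosome 5, 135089890 to 135139768), which encodes ChREBP, was read by 1 probe set (1419185_a_at). Control arrays read 0.30, -0.04, -0.21 and -0.44, and HFD arrays 0.31, 0.31, 0.29, -0.12 and 0.04. Control replicate 1 stood level with the highest HFD arrays and HFD replicate 4 lay among the controls. The difference of 0.26 ± 0.15 did not pass (interval -0.07 to 0.59, adjusted p = 0.428), and the array does not report ChREBP protein or its activity.

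**Figure D3:**
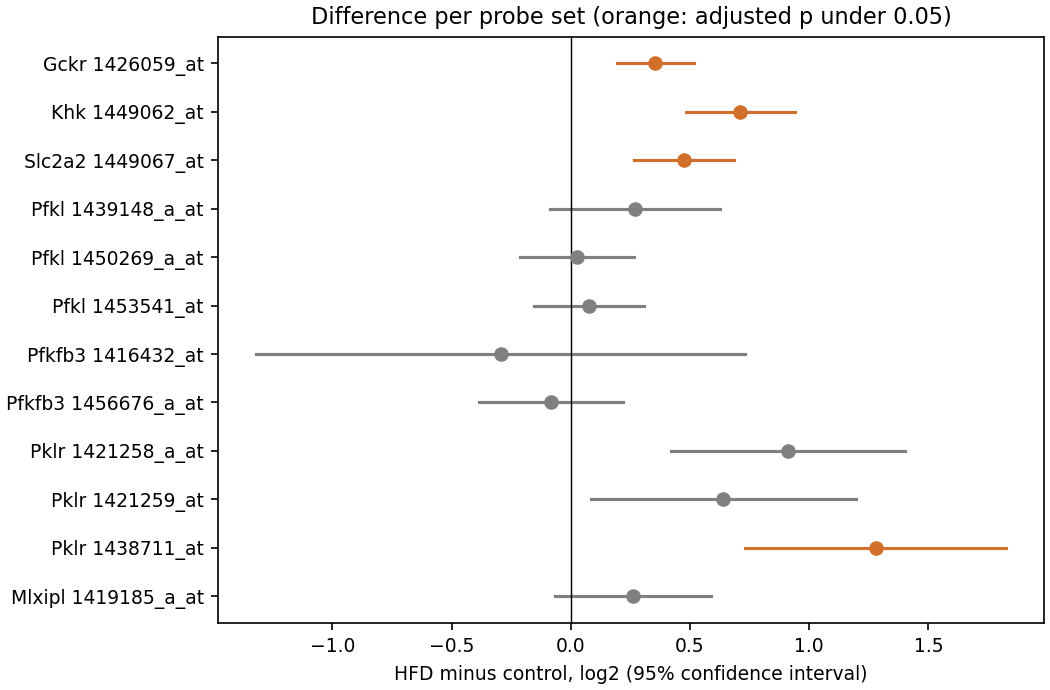
HFD minus control (log2) for each member probe set, with the 95% confidence interval of the limma fit to 4 control and 5 HFD arrays. Orange marks the 4 probe sets with an adjusted p under 0.05, and the intervals of the 2 other Pklr probe sets also lie above 0.

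The arrays of all named probe sets were searched for the genes whose pattern was most like each called member, by the root mean square difference over the 9 arrays. For Pklr 1438711_at the nearest was Tkfc (1425300_at, 0.13), the kinase of glyceraldehyde and dihydroxyacetone in fructose breakdown, followed by Mgll (0.21), the monoglyceride lipase, and Tbcel (0.22). For Khk they were Acot11 (0.10), an acyl-CoA thioesterase, Gstk1 (0.12), a glutathione transferase, and Vwa8 (0.12). For Slc2a2 they were Inmt (0.08), a methyltransferase, Dera (0.08), an aldolase of deoxyribose phosphate, and Glrx5 (0.09), a mitochondrial glutaredoxin. For Gckr they were Pts (0.04), an enzyme of tetrahydrobiopterin synthesis, Prkdc (0.05), a kinase of DNA repair, and Sardh (0.05), the sarcosine dehydrogenase. This likeness includes the diet difference itself, which these genes were bound to share.

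Tkfc was the other enzyme of fructose breakdown with a clear difference. It read -0.35, -0.46, -0.85 and -0.50 in control and 0.35, 0.44, 1.23, 0.50 and 1.19 in HFD, without overlap and with HFD replicates 3 and 5 highest, as in Pklr 1438711_at. Tkfc was higher in HFD by 1.28 ± 0.20 (2.42-fold, adjusted p = 0.00822), and by 0.97 ± 0.12 without HFD replicates 3 and 5 (adjusted p = 0.00747). Its call held without any 1 array (highest adjusted p = 0.0307). Gpd1, which links triose phosphates to glycerol phosphate, rose in 2 of its 3 probe sets (0.83 ± 0.15 in 1448249_at and 0.52 ± 0.11 in 1439396_x_at), neither of which passed without HFD replicates 3 and 5 (adjusted p = 0.0653 and 0.0792), where its remaining probe set, 1416204_at, passed instead (0.88 ± 0.17, adjusted p = 0.0342, against 0.61 ± 0.22 with all arrays). Among the list of fructose and polyol enzymes 2 of 3 measured genes were higher and none lower, and 1 of 3 was higher without control replicate 2. The median difference was 0.56 over 6 probe sets, of which 3 were higher, against 2.04% of all probe sets.

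None of 10 measured transporter genes besides Slc2a2 passed in limma (median difference 0.01 over 19 probe sets, and 3 probe sets with an unadjusted p under 0.05), including Slc2a5, a fructose transporter (0.29 ± 0.12, adjusted p = 0.237), and Slc2a9, a urate and hexose transporter (1440873_at, 0.40 ± 0.19, adjusted p = 0.337). Of 4 hexokinase genes only Hk3, a form known from white blood cells, fell, by 0.41 ± 0.09 in 1 of 2 probe sets (adjusted p = 0.0316), a call lost without any 1 of 7 of the arrays and without HFD replicates 3 and 5 (adjusted p = 0.0615). None of 5 genes for other phosphofructokinase subunits and bisphosphate regulators passed (median -0.02 over 11 probe sets, 2 with an unadjusted p under 0.05), the lowest being Pfkfb2 1429486_at at -0.59 ± 0.17 (adjusted p = 0.0951).

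Below these steps, 12 later glycolytic enzymes were measured and only Aldoc, an aldolase best known from brain, passed the threshold, with 4 of 26 probe sets at an unadjusted p under 0.05. It fell by 1.995 ± 0.18 in probe set 1451461_a_at (3.98-fold, adjusted p = 0.000458), from 1.13 to 1.98 in control to -0.64 to 0.02 in HFD, whereas its other probe set, 1424714_at, differed by -0.07 ± 0.09. Pkm, the pyruvate kinase of most other tissues, differed by -0.45 ± 0.20 and did not pass (adjusted p = 0.286). The median over the 26 probe sets of this list was -0.14.

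Genes of pyruvate entry into mitochondria were higher in 4 of 13 and lower in none, with a median of 0.18 over 24 probe sets. Of these probe sets 5 were higher, against 2.04% of all probe sets. Pdpr, the regulatory subunit of pyruvate dehydrogenase phosphatase, rose by 0.81 ± 0.10 in 1434480_at (adjusted p = 0.00290) and by 0.68 ± 0.12 in 1459869_x_at, while its remaining probe sets gave 0.01 and 0.19. Pdk2 (0.69 ± 0.16) and Pdk1 (0.41 ± 0.08), kinases that switch the complex off, and Pdha1 (0.38 ± 0.08), its catalytic subunit, were also past the threshold. Without HFD replicates 3 and 5, 2 genes of this list passed, Pdpr and Mpc1, a subunit of the mitochondrial pyruvate carrier (0.51 ± 0.07). It held 1 or 2 genes past the threshold when any 1 control array was omitted, and 1 when HFD replicate 3 was.

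Among the 33 probe sets of partners and known targets of ChREBP other than the members, 5 were higher, against 2.04% of all probe sets. By gene, 3 of 15 were higher and none lower, with a median of 0.29 over the 33 probe sets. These were Elovl6, the fatty acid elongase (1.95 ± 0.28 and 1.36 ± 0.28 in 2 of 3 probe sets), Scd1, the desaturase (1.32 ± 0.30 in 1 of 2), and Gpd1, and 1 gene passed without control replicate 2. Elovl6 1417403_at passed without HFD replicates 3 and 5 (1.63 ± 0.22, adjusted p = 0.0106), while Elovl6 1417404_at and Scd1 did not (adjusted p = 0.0555 and 0.0531). The Scd1 call also ended without control replicate 2, 3 or 4 or HFD replicate 1, 2, 3 or 4 (highest adjusted p = 0.130). Txnip, a thioredoxin inhibitor and another known target, spread from -1.44 to 1.28 in control and from -1.96 to 0.74 in HFD in probe set 1415996_at and did not pass in either probe set (adjusted p = 0.895 and 0.602). Mlx, the partner with which ChREBP binds DNA, differed by -0.0006 ± 0.07 in 1418437_a_at and by -0.32 ± 0.31 in 1425930_a_at, and Mlxip, the related factor MondoA, by -0.66 ± 0.18 (adjusted p = 0.0780).

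Of 11 factors known to act on the members' promoters, Srebf1 (1.54 ± 0.26, adjusted p = 0.0106) and Ppara (1.34 ± 0.26, 1.01 ± 0.23 and 0.86 ± 0.19 in its 3 probe sets) rose. Hnf4a fell in 1 of 4 probe sets (1421983_s_at, -0.91 ± 0.18, adjusted p = 0.0248), and its other probe sets ranged from -0.52 to -0.14. The median over the 25 probe sets of this list was 0.09, and 4 of them were higher and 1 lower, against 2.04% and 1.23% of all probe sets. Without HFD replicates 3 and 5, Srebf1 passed (1.42 ± 0.30, adjusted p = 0.0485), no Ppara probe set did (lowest adjusted p = 0.0930), and 2 genes were lower, Hnf4a (1421983_s_at at -0.61 ± 0.08 and 1427000_at at -0.84 ± 0.13) and Foxa3, a forkhead factor of liver (-1.205 ± 0.22, adjusted p = 0.0287). Only 1 gene of this list was higher when HFD replicate 3 or either of control replicates 2 and 4 was omitted, and none was lower when HFD replicate 3 or any 1 control array was.

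**Figure D4:**
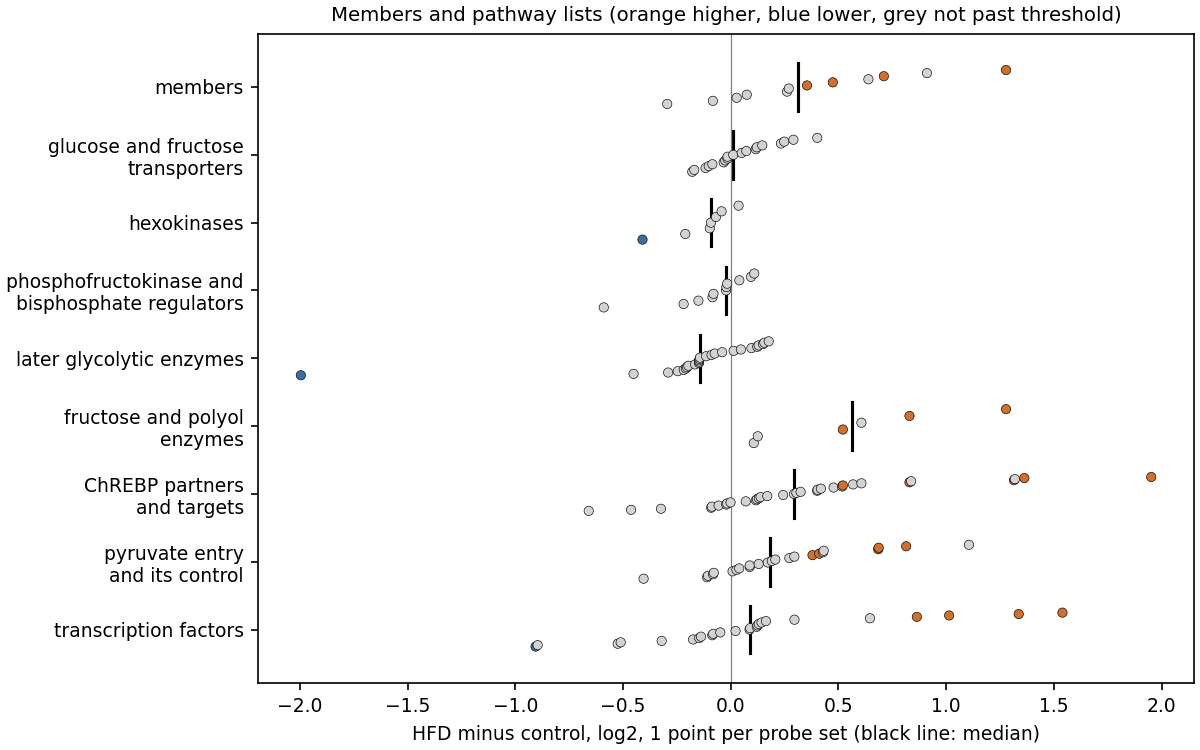
HFD minus control (log2) for every probe set of the members and of the 8 pathway lists, with orange for higher, blue for lower, grey for not past the threshold and a black line at each median. The medians run from -0.14 for later glycolytic enzymes to 0.56 for fructose and polyol enzymes, beside 0.31 for the members.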

How the data were processed

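The series' design text and the submitters' processing notes name RMA, quantile normalization and a baseline at the median of all samples as the steps the authors took. The deposited values were read as log2 differences from a baseline per probe set, although the log base is not given in the sources used here. In most probe sets that baseline does not appear to be the median of the arrays analysed here, and the samples it covered were not established. Control probe sets (60 of 41842) stayed out of the tests. The annotation paired 32801 probe sets with 1 symbol, 862 with several and 8119 with none.

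HFD was compared with control per probe set with limma 3.58.1 in R 4.3.3 (lmFit, eBayes without trend, two-sided, Benjamini-Hochberg over 41782 probe sets, threshold 0.05, no covariate). The test was run on 10 simulated sets for this comparison (41782 probe sets, 200 of them changed): it recovered 37.0% of probe sets changed by 0.5 and 88.6% of those changed by 1 (log2), and 4.38% of its calls were false. The data gave 1363 calls, more than the 200 probe sets changed in the simulation, so these rates may not hold for the data. The number of arrays limits the precision. Replicates were numbered in order of deposition.

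Members and lists were chosen with earlier results of these data known. All members are named, with every listed pathway gene past the threshold, Tkfc, Pkm, Mlx and Txnip, and the 3 genes most like each called member. The expression of Pfkfb1 was not analysed here, nor was the planned comparison of Pfkfb1 with Pfkfb3. Leaving out HFD replicates 3 and 5 and the 3′ minus 5′ covariate were added after seeing the data.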

Additional observations from a re-analysis of the deposited data

Results flagged for a closer look

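In Pfkfb3 1416432_at, control replicate 3 (1.84) was far above the other control arrays (-0.02 to 0.14), its gap to the nearest being 0.91 of the range of the group. It was 1 of 24 groups of arrays examined in this way over the member probe sets, and chance marks about 1 in 20.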

How the results depend on the processing

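The count of 4 member probe sets higher in HFD was 1 at an adjusted p under 0.01 (Khk), 1 to 5 when any 1 array was left out, and 4 to 6 under the other alternatives. Over all probe sets the share called in either direction was 3.26% in the main fit and 0.883% at that stricter threshold. It was 1.31% to 3.54% with 1 array left out and 2.22% to 5.24% under the other alternatives, some of which were per gene. With the 25% of probe sets of smallest SD left out the 4 were not the same, since Gckr no longer passed (adjusted p = 0.0510) and Pklr 1421258_a_at did (0.0306). The count was 1 without control replicate 2 or 3, when 1.31% and 1.61% of all probe sets were called. It was 2 without control replicate 4 or HFD replicate 2, when 1.99% and 2.53% were. No member was lower under any alternative run. With 1 array left out, Pfkfb3 1416432_at ranged from -0.6309 to 0.154, Pfkfb3 1456676_a_at from -0.173 to 0.00489 and Pfkl 1450269_a_at from -0.0268 to 0.1094, so their directions were not fixed. Without HFD replicates 3 and 5, an alternative chosen after seeing the data, Pfkl 1450269_a_at was -0.005443 and Pfkfb3 1456676_a_at 0.09704. Between probe sets of 1 gene, the pair Pfkl 1450269_a_at minus 1453541_at ranged from -0.09256 to 0.01128 and the Pfkfb3 pair from -0.5955 to 0.1864 with 1 array left out. Without HFD replicates 3 and 5, Pfkl 1439148_a_at minus 1453541_at was -0.07064 and Pklr 1421258_a_at minus 1438711_at was 0.1632, and the cause was not tested. No paired analysis was possible because replicate numbers only follow the order of deposition and pair no arrays.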

Other observations

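Probe sets of Mlx and of Gpd1 also parted on HFD replicates 3 and 5. These genes were chosen here after their values were seen, and how many other genes do or do not part there was not counted. Mlx 1425930_a_at stood at -0.72 and -1.40 on these arrays, against -0.11 and -0.003 in Mlx 1418437_a_at. Gpd1 1416204_at stood at 0.21 and -0.24, against 0.61 and 0.51 in Gpd1 1448249_at. The Gpd1 pair also parted, the other way, on control replicate 1 (0.26 against -0.16) and on HFD replicates 1 (0.57 against 0.16), 2 (0.63 against 0.16) and 4 (0.80 against 0.31).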
